A study of Rattus norvegicus with 6 samples.

Results

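The 10 genes described here encode receptors for neuropeptide Y (Npy1r, Npy2r), somatostatin (Sstr1, Sstr2, Sstr5), galanin (Galr1, Galr2) and the opioid and nociceptin peptides (Oprm1, Oprd1, Oprl1). They were picked by name from the 56748 genes of the deposited count table, and all 10 were found there and passed the filter on low counts. They were chosen with their counts in the comparison below already known, so their differences are given as a description, with no test read from them. The 6 libraries are poly(A)-selected RNA of primary dorsal root ganglion neurons, the sensory nerve cells beside the spinal cord, labelled as rat. In 3 libraries (EVMu) the neurons had received extracellular vesicles from innervated muscle, and in 3 (EVadMu) vesicles from acutely denervated muscle. The labels name no genotype, strain, age, dose or time and no group without vesicles, so a lower level in EVadMu cannot be told apart from a higher one in EVMu. The labels do not state whether replicate libraries are separate cultures or animals. Each p-value reflects the scatter among these 3 libraries per group, estimated with both groups and all tested genes together. That scatter may be technical only.

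All these receptors are G protein-coupled, and except for Galr2 they act mainly through the inhibitory Gi and Go proteins. When bound by their peptide, receptors of the Gi and Go kind lower adenylyl cyclase activity, close presynaptic calcium channels and open inwardly rectifying potassium channels, which quiets the cell. Galr2 acts chiefly through Gq and phospholipase C. In the dorsal root ganglion such receptors sit on nociceptor cell bodies and on central terminals, where they limit release of pain transmitters, and the mu opioid receptor is the target of morphine. Neuropeptide Y and galanin are scarce in intact sensory neurons of rodents and are known to be induced when the peripheral nerve is cut.

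Windows around the annotated transcription start are shown for the gene whose counts were absent from EVadMu (Npy2r), for its family member that was also much lower there (Npy1r) and for the gene that was much higher there (Sstr5). They are RefSeq sequences of the rat assembly GRCr8, 250 bases before to 50 bases after a start, while the counts carry mouse identifiers. The Npy2r start used by RefSeq for this window lies inside the gene as the same source draws it.
Npy2r, GRCr8 chr2:170203051-170203350, minus strand: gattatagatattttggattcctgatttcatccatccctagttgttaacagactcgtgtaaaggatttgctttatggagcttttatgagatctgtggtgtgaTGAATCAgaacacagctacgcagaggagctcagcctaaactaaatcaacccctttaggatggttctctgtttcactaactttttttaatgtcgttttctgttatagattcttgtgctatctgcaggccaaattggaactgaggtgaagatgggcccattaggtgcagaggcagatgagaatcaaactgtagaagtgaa
Npy1r, GRCr8 chr16:27813338-27813637, minus strand: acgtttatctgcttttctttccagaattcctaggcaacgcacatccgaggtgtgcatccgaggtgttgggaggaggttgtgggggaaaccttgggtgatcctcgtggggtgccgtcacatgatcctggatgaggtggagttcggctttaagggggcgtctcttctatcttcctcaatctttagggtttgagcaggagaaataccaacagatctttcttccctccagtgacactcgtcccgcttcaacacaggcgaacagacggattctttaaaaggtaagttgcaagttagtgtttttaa
Sstr5, GRCr8 chr10:15017420-15017719, minus strand: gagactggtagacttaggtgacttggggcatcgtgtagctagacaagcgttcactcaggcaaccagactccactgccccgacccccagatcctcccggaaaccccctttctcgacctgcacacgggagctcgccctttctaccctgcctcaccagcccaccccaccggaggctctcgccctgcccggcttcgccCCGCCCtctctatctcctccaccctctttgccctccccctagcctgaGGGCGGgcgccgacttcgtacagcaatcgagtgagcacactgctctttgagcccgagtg
Capitals mark matches, on either strand, to any of 6 motifs: TGACGTCA (cyclic AMP response element), TGANTCA (AP-1), TGATGNAA (C/EBP-ATF), ACGTG (hypoxia response core), GGGCGG (GC box) and TATAAA. None of the motifs contains another. Npy2r held 1 AP-1 match and Sstr5 held 2 GC boxes. Of all 33469 windows, 7.33% hold an AP-1 match and 33.1% hold a GC box, where a window with 1 match or more is counted once, as it is for the shares below. Npy1r held none of the 6. Of the other members, 6 had a window: Sstr2 held 1 cyclic AMP response element (1.83% of windows), 1 hypoxia core (19.3%) and 1 GC box, Oprd1 held 2 hypoxia cores and 4 GC boxes, Galr1 held 2 GC boxes, and Sstr1, Galr2 and Oprm1 held none. The C/EBP-ATF motif (3.98% of windows) and TATAAA (14.2%) matched in no receptor window. These are matches of letters only.

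Library totals were 14853115 to 17019877 counts. Levels are CPM, read counts divided by a library size that was scaled with the trimmed mean of M values (TMM). They are given with the SD over 3 libraries of a group. Log2 fold changes are EVadMu over EVMu. Their standard error was worked out from the log2 fold change and the F statistic of edgeR's quasi-likelihood test. Reads per gene depend on transcript length, which was not used here, so levels are compared between groups and not between genes. Pan-neuronal markers were present in all libraries but took less of them in EVadMu. In edgeR's quasi-likelihood test 13 of 16 fell and 2 rose, beside 40.8% and 39.2% of all tested genes. Their summed level was 6519 to 6771 CPM in EVMu and 3919 to 4040 CPM in EVadMu. Markers of fibroblasts, a cell type other than the one labelled, summed to 6707 to 6788 CPM in EVMu and to 315 to 333 CPM in EVadMu, and all 13 fell. In bulk RNA, fewer cells of a type and less RNA per cell cannot be told apart.

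Across the receptors the direction differed from gene to gene. Past an adjusted p of 0.05 in edgeR's quasi-likelihood test were 8 of 10 members, beside 80% of all 16993 tested genes. In EVadMu 5 of 10 members were lower and 3 higher by this call, where 40.8% of all tested genes were lower and 39.2% higher. By at least 2-fold, 5 were lower and 1 was higher, beside 23.5% and 17.6% of all tested genes. The 3 libraries of EVadMu lay wholly below those of EVMu for 5 members and wholly above for 3, beside 41.4% and 39.4% of all tested genes (80.7% in either direction). Since the members were chosen on this contrast, nothing is read from these counts. The median log2 fold change of the 10 was -0.33, and that of all tested genes was -0.02. Sstr5 reached the level that the filter on low counts asks for in no EVMu library, and Npy2r in no EVadMu library.

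**Figure D1:**
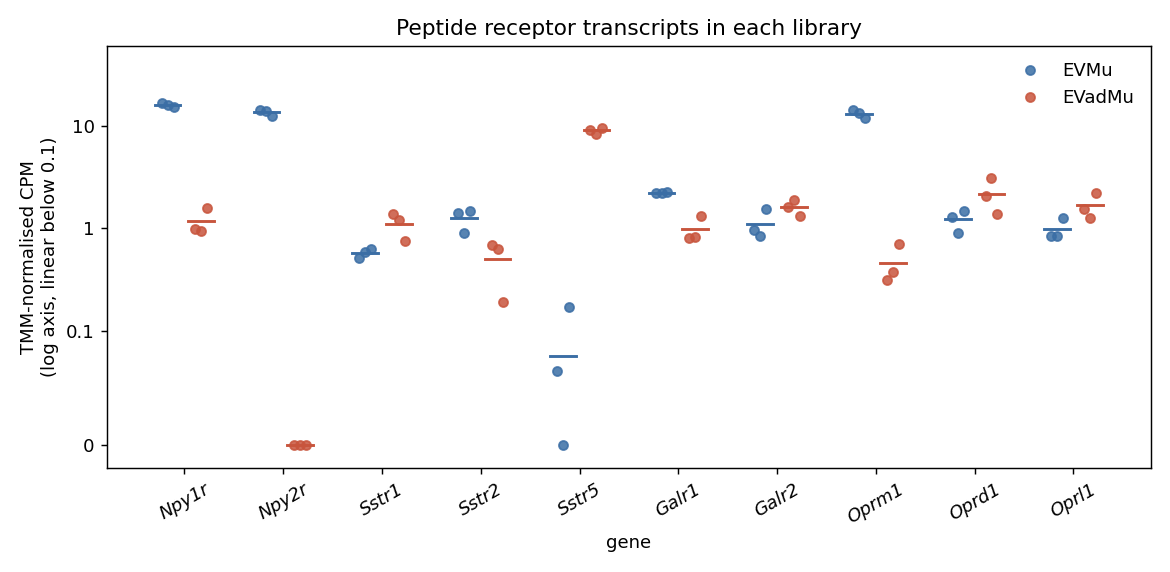
Level of each receptor gene (TMM-normalised CPM, log axis that is linear below 0.1) in the 3 EVMu and 3 EVadMu libraries, with a dot per library and a bar at the group mean. Npy1r, Npy2r and Oprm1 sat between 11.9 and 16.5 CPM in EVMu and at or below 1.58 CPM in EVadMu, and Sstr5 sat at or below 0.17 CPM in EVMu and between 8.37 and 9.49 CPM in EVadMu.

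Npy2r encodes the Y2 receptor, which on sensory neurons is known as a presynaptic receptor for neuropeptide Y. It had 223, 214 and 222 counts in the EVMu libraries, or 14.4, 13.9 and 12.6 CPM, and 0 counts in each EVadMu library. All EVMu libraries thus stood far above all EVadMu libraries. Taking 3 counts over the EVadMu group as the floor, it was at least 216-fold lower. That bound and the counting intervals below cover counting error only.

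Npy1r encodes the Y1 receptor, which in rodent ganglia sits mainly on small peptide-containing neurons. Its counts were 256, 245 and 271 in EVMu (16.5, 15.9 and 15.4 CPM) and 16, 15 and 25 in EVadMu (0.992, 0.943 and 1.58 CPM). The groups were wide apart, and some Npy1r reads were found in every EVadMu library, unlike Npy2r. The level was 15.9 ± 0.57 CPM in EVMu and 1.17 ± 0.35 CPM in EVadMu (SD, n = 3), a log2 fold change of -3.75 ± 0.18 (SE).

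The remaining neuropeptide Y receptors were near the limit of detection and were not tested. Npy5r, the Y5 receptor gene, had 15 counts over EVMu and 7 over EVadMu, with overlapping libraries. Npy4r, the receptor gene for pancreatic polypeptide, had 2 counts over EVMu and 19 over EVadMu, a ratio of 9.65 with a 95% counting interval of 2.33 to 85.5. Npy6r had 3, 25 and 11 counts in EVMu and 1 count over EVadMu, a ratio of 38.4 in the opposite direction (6.50 to 1555). Npy6r was the 1 name among the 10 receptors and 97 related genes listed here that was not found in the rat gene table used, while all identifiers of the count table are mouse identifiers. Summed over the 5 receptor genes of the family, the level was 28.7 to 31.7 CPM in EVMu and 1.38 to 2.09 CPM in EVadMu.

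The transcript of the shared ligand did not pass the test. Npy was at 3.67, 2.92 and 3.40 CPM in EVMu and at 2.79, 2.52 and 2.97 CPM in EVadMu, so the groups overlapped. Its log2 fold change was -0.27 ± 0.23 and it did not pass (edgeR adjusted p = 0.277). Pyy, the gut peptide YY gene, had 0 counts in EVMu and 4 over EVadMu, and the pancreatic polypeptide gene Ppy had none in any library.

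Among somatostatin receptors, Sstr5 had nearly no reads in EVMu and 431 over the EVadMu group. This receptor gene, best known from pituitary and pancreatic islets, had 1, 0 and 3 counts in EVMu and 148, 133 and 150 in EVadMu. In levels this was 0.064, 0 and 0.17 CPM against 9.18, 8.37 and 9.49 CPM, with no overlap and a narrow spread in EVadMu. The ratio of the group sums was 109, with a 95% counting interval of 42.4 to 404.

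The other somatostatin receptors were low in both groups. Sstr1 had 8, 9 and 11 counts in EVMu and 22, 19 and 12 in EVadMu, and its EVadMu libraries all lay above, the nearest by 1 count. Its level was 0.574 ± 0.055 CPM in EVMu and 1.11 ± 0.31 CPM in EVadMu, a log2 fold change of 0.93 ± 0.42. Sstr2, the receptor targeted by the drug octreotide, had 22, 14 and 26 counts in EVMu and 11, 10 and 3 in EVadMu. All its EVadMu libraries lay below EVMu, at 0.50 ± 0.27 against 1.27 ± 0.31 CPM, a log2 fold change of -1.33 ± 0.44. Sstr1 and Sstr2 thus differed in opposite directions at levels near 1 CPM.

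Some of these calls rest on 1 library. Sstr2 was no longer past the threshold without EVadMu replicate 3, its lowest library (log2 fold change -0.94). Sstr1 was past it in the leave-one-out fits only without EVadMu replicate 3 (1.15), and fell short in the other 5 at 0.77 to 0.99. In the rat gene table Sstr2 lies within the bounds of Slc39a11, a zinc transporter gene, which stood at 18.5 ± 0.52 CPM in EVMu and 20.3 ± 1.11 CPM in EVadMu. No strand-marking step is named, so reads of overlapping genes may not be told apart.

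Sstr4 and Sstr3 were the other family members with reads. Sstr4 was at 1.10, 1.17 and 1.13 CPM in EVMu and at 0.868, 0.818 and 0.569 CPM in EVadMu, a log2 fold change of -0.58 ± 0.39 that did not pass (edgeR adjusted p = 0.169). Sstr3 had 32 counts over EVMu and 3 over EVadMu and was not tested, at a ratio of 10.5 (95% counting interval 3.28 to 53.6). The summed level of the 5 somatostatin receptor genes was at most 4.36 CPM in any EVMu library and up to 12.1 CPM in EVadMu, where 431 of 547 counts were of Sstr5. The ligand genes were nearly silent, with 8 and 2 counts for Sst and 9 and 9 counts for the related peptide cortistatin, Cort, over EVMu and EVadMu.

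Of the galanin receptors, Galr1 was lower under TMM scaling and Galr2 was not past the threshold, and they were not compared with each other. Galr1, which acts through Gi, had 34, 34 and 40 counts in EVMu and 13, 13 and 21 in EVadMu, or 2.19, 2.20 and 2.27 CPM against 0.806, 0.818 and 1.33 CPM. The EVMu libraries were nearly equal and all above EVadMu, at a log2 fold change of -1.17 ± 0.33. Galr2, the Gq-coupled member, had 15, 13 and 27 counts in EVMu and 26, 30 and 21 in EVadMu. Its groups overlapped, at 1.11 ± 0.37 and 1.61 ± 0.28 CPM, and its log2 fold change of 0.51 ± 0.35 was not past the threshold. Galr3 had 2 counts in each group.

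Galanin fell while spexin rose. Gal was at 33.6, 36.2 and 32.9 CPM in EVMu and at 11.2, 12.1 and 10.9 CPM in EVadMu, a log2 fold change of -1.58 ± 0.090 (edgeR adjusted p = 1.3e-17). Spx encodes spexin, a peptide that activates the galanin receptors 2 and 3. It was at 1.48, 2.53 and 1.64 CPM in EVMu and at 13.6, 12.0 and 14.9 CPM in EVadMu, a log2 fold change of 2.84 ± 0.18 (edgeR adjusted p = 3.86e-16). Neither gene's groups overlapped. Galp, the galanin-like peptide gene, had 4 and 3 counts over the groups.

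Of the tested opioid receptors, the mu receptor gene was low in EVadMu and the delta and nociceptin receptor genes were not. Oprm1 had 220, 204 and 210 counts in EVMu (14.2, 13.2 and 11.9 CPM) and 5, 6 and 11 in EVadMu (0.31, 0.377 and 0.696 CPM). The groups were far apart, at 13.1 ± 1.14 and 0.461 ± 0.21 CPM and a log2 fold change of -4.81 ± 0.24. In the rat gene table Oprm1 overlaps Ipcef1, which was at 1.07 ± 0.084 CPM in EVMu and 0.731 ± 0.12 CPM in EVadMu. Ipcef1 had 14, 11 and 10 counts in EVadMu, so reads of the overlap could be among the few of Oprm1 there, and their part was not tested.

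Oprd1, the delta receptor gene, had 20, 14 and 26 counts in EVMu and 33, 49 and 22 in EVadMu. The lowest EVadMu library lay inside the EVMu range, and the mean level was 1.22 ± 0.29 CPM against 2.17 ± 0.85 CPM, a log2 fold change of 0.82 ± 0.33. Without EVMu replicate 1, EVMu replicate 2 or EVadMu replicate 2 it was no longer past the threshold (0.84, 0.64 and 0.49). Oprl1 encodes the nociceptin receptor and had 13, 13 and 22 counts in EVMu and 25, 20 and 35 in EVadMu. Its normalised levels did not overlap, at 0.976 ± 0.23 and 1.67 ± 0.49 CPM, but its log2 fold change of 0.76 ± 0.36 was just short of the threshold. It passed without EVMu replicate 3 or EVadMu replicate 2 (0.98 and 0.94). The kappa receptor gene Oprk1 was not tested, with 31 counts over EVMu and 9 over EVadMu. Summed over the 4 opioid receptor genes the level was 15.1 to 16.6 CPM in EVMu and 3.97 to 5.03 CPM in EVadMu.

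The opioid precursor genes split in the same comparison. Penk, the enkephalin precursor, fell from 13.7, 16.2 and 12.0 CPM to 0.744, 0.629 and 1.52 CPM, a log2 fold change of -3.85 ± 0.22 (edgeR adjusted p = 1.19e-17). Pdyn, the dynorphin precursor, fell from 4.99 ± 0.85 to 0.398 ± 0.13 CPM, at -3.62 ± 0.32 (edgeR adjusted p = 2.66e-12). Pomc, the precursor of beta-endorphin and melanocortins, rose from 1.14 ± 0.39 to 9.97 ± 0.47 CPM, with all EVadMu libraries above all of EVMu, at 3.11 ± 0.21 (edgeR adjusted p = 2.85e-15). In the rat gene table Pomc overlaps the end of Efr3b, which was lower in EVadMu (65.1 ± 4.00 against 19.5 ± 1.55 CPM). Pnoc, the nociceptin precursor, had 7 and 3 counts over the groups and was not tested.

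**Figure D2:**
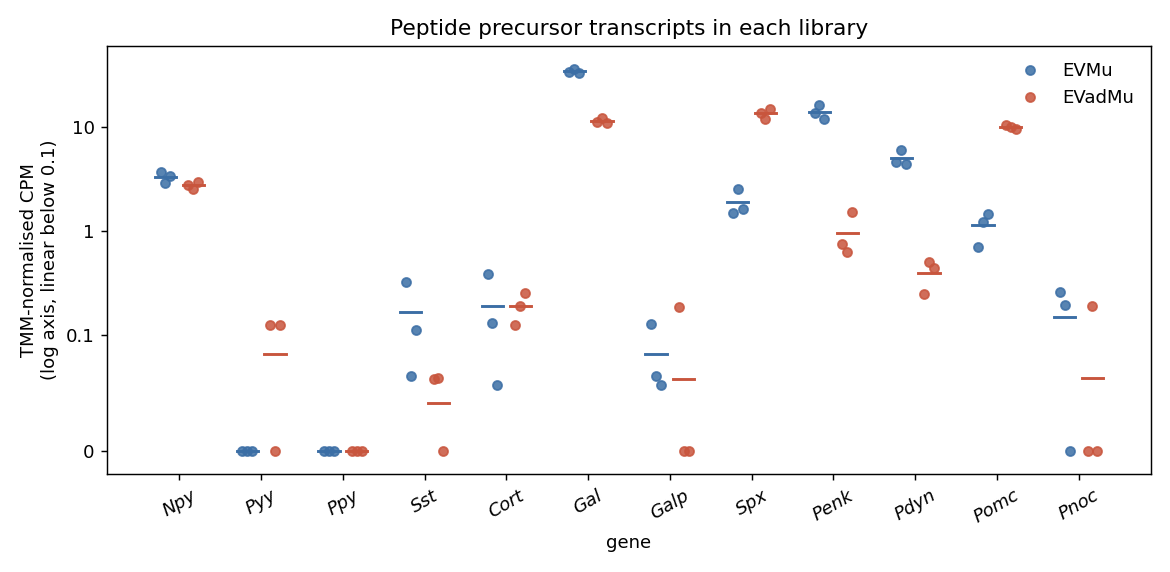
Level of each peptide precursor gene (TMM-normalised CPM, log axis that is linear below 0.1) in the 3 EVMu and 3 EVadMu libraries, with a dot per library and a bar at the group mean. Gal, Penk and Pdyn were lower in all EVadMu libraries, Spx and Pomc were higher in all of them, and Npy overlapped.

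Of the 12 precursor genes, 6 were tested. Past an adjusted p of 0.05 over all genes, 3 of them fell and 2 rose, beside 40.8% and 39.2% of all tested genes. Their median log2 fold change was -0.93, beside -0.02 for all tested genes. Of the 7 other receptor genes of these families only Sstr4 was tested. Set side by side, receptors and precursors showed no common direction. The enkephalin precursor fell while its mu receptor gene was at -4.81 and its delta receptor gene at 0.82, and Pomc, whose beta-endorphin also binds the mu receptor, rose. Galanin fell with Galr1 at -1.17 and Galr2 at 0.51, and spexin rose. Npy1r and Npy2r were lower with a precursor that did not pass, and Sstr5 was high where the somatostatin precursor had 2 counts.

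Most transcripts of proteins that carry, end or feed the signal of these receptors were lower as well. Over all 7 lists of related genes, ligands and the other receptors included, 79 of 97 genes were tested, of which 59 fell and 12 rose, where 40.8% of all tested genes fell and 39.2% rose, with a median log2 fold change of -0.88. When libraries were scaled to pan-neuronal markers instead, 38 fell and 24 rose, beside 3734 and 10569 of all 16993 tested genes. On that scale effectors (15 lower, 2 higher) and ectopeptidases (4 lower, 0 higher) stayed mainly lower, while G protein subunits (7 and 11), kinases, arrestins and sorting genes (3 and 4) and RGS proteins (6 and 5) did not. Of 20 tested G protein subunit genes 13 fell and 6 rose (median -0.43). Gnao1, the alpha subunit of Go that is abundant in neurons, fell from 269 ± 4.48 to 123 ± 6.12 CPM (log2 fold change -1.13 ± 0.039, edgeR adjusted p = 5.4e-24), and the alpha subunit gene Gnaq fell by 1.25 on the log2 scale. The beta and gamma subunit genes Gnb4 and Gng2 fell by 1.65 and 1.92. Gnai3, an alpha subunit of Gi, rose from 165 ± 5.61 to 273 ± 12.3 CPM (0.72 ± 0.039), and Gnb2, Gng5 and Gng8 rose by 0.21, 1.46 and 0.56. The other Gi alpha subunit genes were lower under TMM scaling. Gnai2 fell from 587 ± 1.12 to 349 ± 11.0 CPM (-0.75 ± 0.031), and Gnai1 was at -0.56. The alpha subunit gene Gnaz was at -2.12. Gnai1, Gnai2 and Gnaz were named after their values were seen, and their values scaled to pan-neuronal markers are not given here.

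Effectors fell in 17 of 19 tested genes, with a median of -1.17. Cacna2d1, the calcium channel subunit bound by gabapentin, fell from 282 ± 10.5 to 33.9 ± 1.39 CPM (log2 fold change -3.06 ± 0.047, edgeR adjusted p = 2.15e-34). The calcium channel subunit Cacnb3, the adenylyl cyclase Adcy5 and the phospholipase Plcb3 fell by 1.44, 2.36 and 1.54 on the log2 scale. The potassium channel subunits Kcnj6 and Kcnj9 were the exceptions. Kcnj3, a further subunit of such channels, fell from 2.85 ± 0.23 to 0.584 ± 0.25 CPM (-2.27 ± 0.35). It was named after its values were seen. Kcnj6 rose from 0.875 ± 0.36 to 2.24 ± 0.21 CPM (1.36 ± 0.35, edgeR adjusted p = 6.1e-04), and Kcnj9 was at 1.08 ± 0.45 with overlapping libraries. Kcnj9 missed the threshold without EVMu replicate 1 or 2 or EVadMu replicate 2 or 3 (0.95, 0.75, 1.11 and 0.77).

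Among receptor kinases, arrestins and sorting genes 7 of 10 fell and 2 rose (median -0.52). Arrb1, beta-arrestin 1, which uncouples activated receptors, fell from 468 ± 6.79 to 116 ± 3.06 CPM (log2 fold change -2.01 ± 0.035, edgeR adjusted p = 9.11e-33), and Arrb2, Grk5 and Grk6 fell by 0.88, 1.23 and 1.01. Arrb2 was no longer past the threshold when scaled to pan-neuronal markers (-0.14, edgeR adjusted p = 0.121). The receptor kinase gene Grk3 rose by 0.87. Wls, whose product binds the mu receptor, was at 0.13 with overlapping libraries, and missed the threshold without EVMu replicate 2 or 3 or EVadMu replicate 2 or 3 (0.13, 0.081, 0.12 and 0.12). RGS proteins shorten G protein signals, and 12 of 16 tested genes fell and 0 rose in edgeR's test (median -0.65). None rose at an unadjusted p under 0.05 or in DESeq2 or limma-voom either, whereas 5 rose when scaled to pan-neuronal markers. Rgs4 fell from 412 ± 6.50 to 49.0 ± 2.35 CPM (-3.07 ± 0.041, edgeR adjusted p = 4.08e-36), and Rgs5, Rgs9 and Rgs17 by 1.21, 1.91 and 1.30. All 7 ectopeptidase genes, whose enzymes cut peptides outside the cell, fell (median -1.07), among them the enkephalin-cutting neprilysin gene Mme by 1.53, Enpep by 2.66, Ece1 by 1.07 and Lnpep by 0.74. Scaled to pan-neuronal markers, Lnpep was at -0.009 (edgeR adjusted p = 0.854).

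**Figure D3:**
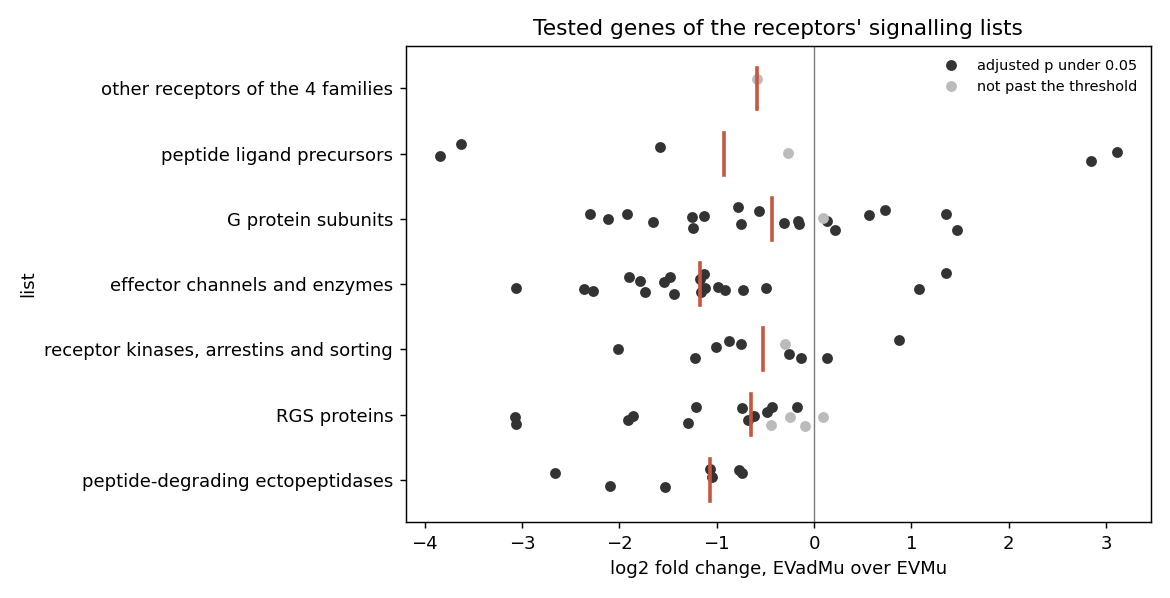
Log2 fold change (EVadMu over EVMu) of each tested gene in the 7 lists of related genes, dark where the edgeR adjusted p is under 0.05 and pale where it is not, with a bar at the list median. The medians of all 7 lists lie below 0, from -1.17 for effectors to -0.43 for G protein subunits. Scaled to pan-neuronal markers, those of G protein subunits, of kinases, arrestins and sorting genes, of RGS proteins and of the other receptors lie above 0 (0.30, 0.21, 0.0845 and 0.15).

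Markers of the sensory neuron types that could carry these receptors were lower in the same libraries, with exceptions. All 8 peptidergic nociceptor markers fell (median -1.72), as did all 5 tested non-peptidergic markers (median -2.37). Of 6 markers of the itch neurons known to express somatostatin, 4 fell and 1 rose (median -0.67). Of 7 large-diameter neuron markers 3 fell and 2 rose (median -0.01). Over all 16993 tested genes, 40.8% fell and 39.2% rose. The itch marker that rose was Nppb, from 0.649 ± 0.28 to 9.89 ± 0.16 CPM. Those that fell were Nts, Il31ra, Osmr and Jak1, at log2 fold changes of -2.77, -1.44, -0.60 and -0.31. The large-diameter markers that rose were Pvalb, from 5.99 ± 0.31 to 27.8 ± 1.82 CPM, and Runx3, from 1.04 ± 0.45 to 2.74 ± 0.61 CPM. Those that fell were Ntrk2, Ntrk3 and Spp1, at -1.09, -1.93 and -1.93. These itch and large-diameter markers were named after their values were seen. Markers of other cells were lower too: 12 of 15 glial markers with 1 higher (median -1.79), 8 of 10 tested macrophage and leukocyte markers with 1 higher (median -2.18), and all 10 tested endothelial and mural markers (median -2.45). When libraries were scaled to pan-neuronal markers, 14303 of all 16993 tested genes were called, of which 73.9% were higher. Beside that, 6 peptidergic markers were lower and 2 higher, and 4 of 5 non-peptidergic markers were lower. On that scale 1 itch marker was lower and 3 were higher (median 0.06), and 3 large-diameter markers were lower and 4 higher (median 0.72). Of the other cells, 11 glial markers were lower and 3 higher, 7 macrophage and leukocyte markers lower and 1 higher, and 8 of 10 endothelial and mural markers lower. In TMM-scaled CPM, summed levels in EVMu and EVadMu were 1379 to 1397 and 524 to 557 CPM for peptidergic markers and 976 to 1001 and 263 to 281 CPM for non-peptidergic markers. They were 458 to 480 and 315 to 319 CPM for itch markers and 909 to 913 and 647 to 672 CPM for large-diameter markers. Glial markers summed to 5084 to 5201 and 2315 to 2377 CPM, macrophage and leukocyte markers to 100.3 to 109 and 135 to 141 CPM, and endothelial and mural markers to 788 to 820 and 126 to 129 CPM. The macrophage and leukocyte sum was carried by Cd68, a lysosomal protein gene, which rose from 12.9 ± 1.90 to 131 ± 3.23 CPM, whereas the lysozyme gene Lyz2 fell from 65.5 ± 2.15 to 0.879 ± 0.19 CPM. Both were named after their values were seen. No listed marker was at 0 throughout a group, and the part of any of these lists in the receptor differences was not tested.

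The receptors were also set against the summed counts of the 16 pan-neuronal markers in each library. These markers did not move together, with log2 fold changes of -2.63 to 0.29 under TMM scaling. Scaled to their own sum, 11 were still lower and 4 higher (median -0.31), so the sum is not a measured share of neurons. With this scaling the median of all tested genes moved up by 0.73 on the log2 scale. Of called genes 73.9% were higher in place of 49.0%, and receptor values are read against that shift. On this scale Npy1r and Oprm1 were at -3.02 and -4.08, and Npy2r was at least 129.8-fold lower on the floor of 3 counts. Galr1 and Sstr2 were at -0.44 and -0.60. Sstr5, Sstr1, Oprd1, Oprl1 and Galr2 were at 7.35, 1.66, 1.55, 1.49 and 1.25. Npy and Sstr4 changed sign (0.46 and 0.15), neither past the threshold.

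**Figure D4:**
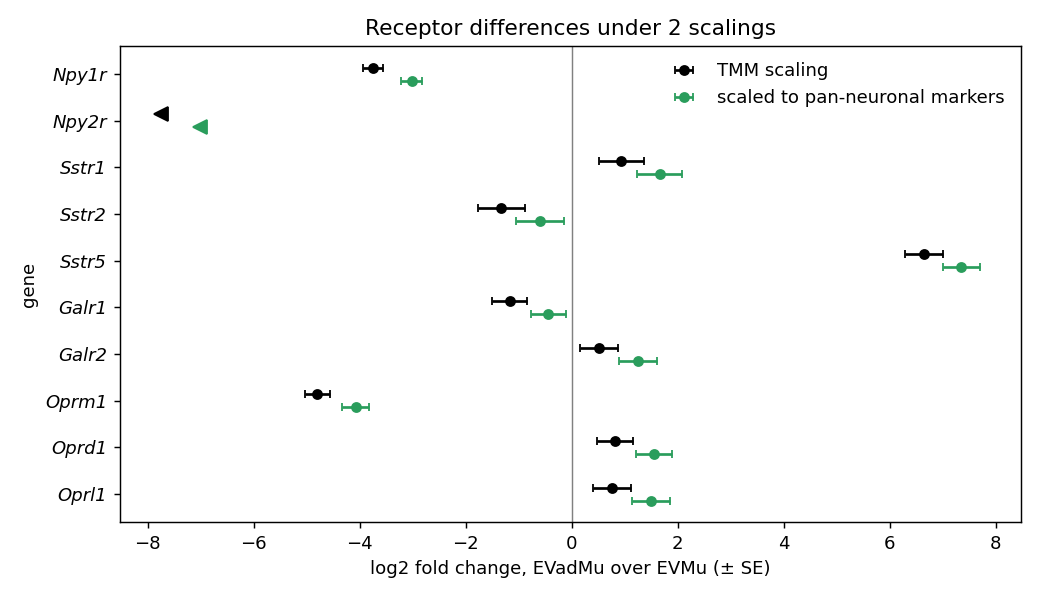
Log2 fold change (EVadMu over EVMu, bars are the standard error) of each receptor gene under TMM scaling and when scaled to the 16 pan-neuronal markers. Triangles for Npy2r mark the bound from a floor of 3 counts, since it had 0 counts in EVadMu. Galr1 and Sstr2 move toward 0 under the second scaling and no receptor changes sign.

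The genes nearest to Npy2r and Sstr5 over the 6 libraries were found by the Euclidean distance of log2(CPM + 0.5) among 14264 tested genes with a symbol. For Npy2r they were the purinergic receptor gene P2ry12 (13.1 ± 2.33 CPM in EVMu and 0.063 ± 0.063 CPM in EVadMu, distance 0.44), Tmem119 (12.9 ± 1.01 and 0.125 ± 0.061 CPM, distance 0.64) and Xkr5 (distance 0.74). P2ry12 and Tmem119 are widely used markers of microglia. Of the listed macrophage and leukocyte markers, Cx3cr1, Aif1 and Itgam had mean levels of 0.999, 0.423 and 1.06 CPM in EVMu. Csf1r, Adgre1 and Lyz2 were at 6.44, 5.81 and 65.5 CPM there. All of these were named after their values were seen. The part of microglia in the Npy2r difference was not tested. For Sstr5 they were the intestinal cholesterol transporter gene Npc1l1 (0.251 ± 0.077 CPM in EVMu and 10.1 ± 2.40 CPM in EVadMu, distance 0.95), Asmt (distance 1.07) and the antiplasmin gene Serpinf2 (distance 1.15). Such likeness follows the level in the 2 groups and describes these libraries only.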

How the data were processed

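Poly(A)-selected RNA of 3 EVMu and 3 EVadMu libraries was analysed from the deposited raw counts of reads per gene, which the authors had not normalised. Per the submitters' processing notes, the tools were HISAT2, SAMtools, featureCounts and CASAVA 1.8 and the build was mm39 of mouse, although the labels give rat. Tool roles, annotation, strand setting and multi-mapping rules were not given in the sources used here, and any loss of rat reads on a mouse genome was not tested. Groups came from sample titles. Totals were 14853115 to 17019877 counts.

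Genes passing edgeR's default filter (minimum count 10, minimum total 15; 16993 genes) were compared with edgeR 4.0.16 in R 4.3.3: TMM factors, quasi-likelihood F-test and Benjamini-Hochberg adjustment over all tested genes at a threshold of 0.05. The test was run on simulated counts in which only a small part of the genes differed. That run does not show how the test behaves where 80% of tested genes are called, as here. Between replicate libraries the variance was 2.08 to 3.05 times that expected from counting alone, so none was treated as a repeat deposit. Counting intervals are exact 95% intervals of the ratio of 2 count sums. Alternatives were other scaling factors, other filters, the replicate number as a block, DESeq2 1.42.0, limma-voom 3.58.1 and leaving out each library.

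Members and lists were chosen with earlier results of these data known. Named genes were the 10 receptors, all other receptors and ligand precursors of the families, up to 4 called genes with the smallest p in each direction of the other lists, and the 3 genes nearest to Npy2r and Sstr5. Genes named for an overlap were added after values were seen, as were the others marked so in the text. Promoter windows came from RefSeq (GRCr8) by symbol, for 9 of 10 receptors.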

Additional observations from a re-analysis of the deposited data

How the results depend on the processing

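Since the receptors were chosen on this contrast, their calls under other settings are a description and no support. Of them, 3 were called higher, but 1 with library totals alone and 1 with the replicate number as a block, and 1 to 3 without single libraries. The block ended the calls of Sstr1 and Oprd1 (adjusted p = 0.075 and 0.0556) and of no other named gene. Replicate numbers did not pair the libraries (correlations of deviations -0.0162 to -0.00534 for equal numbers), and no library correlated best with that of its own number. Scaling to pan-neuronal markers gave 5 receptors higher and 3 lower, 24 related genes higher and 38 lower, and 10569 genes higher and 3734 lower over all, 6788 and 2181 by at least 2-fold, and reversed Sstr4 (0.15) and Npy (0.46). It ended the calls of Sstr2, Galr1, Arrb2 and Lnpep (adjusted p = 0.212, 0.218, 0.121 and 0.854), and Galr2 and Oprl1 then passed. Under TMM these were 12 and 59 related genes, 6658 and 6939 genes, and 2992 and 3999. Sstr1 also missed the threshold with upper-quartile factors, library totals, no filter, DESeq2 and limma-voom (adjusted p = 0.0543, 0.0722, 0.111, 0.0929 and 0.0596), and with Sstr2 it was removed by the stricter filter. Kcnj9 missed it with library totals, no filter and DESeq2 (0.0524, 0.0528 and 0.0673), and Wls with upper-quartile factors, library totals and no filter (0.181, 0.798 and 0.198). Oprd1 missed it with library totals (0.0538). Oprl1 passed with RLE factors and the stricter filter (0.0456 and 0.0381). Apart from the construction of a setting, the cause was not tested. Without a filter, the other receptors of the families gave 1 gene higher and 3 lower in place of 0 and 0. Depth limits Sstr1, Sstr2, Galr1, Galr2, Oprd1 and Oprl1, which rest on 3 to 49 counts per library.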
